A study of Mus musculus with 13 samples.

Results

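The 9 genes described here are genes that the tumour suppressor p53 switches on, or that carry out apoptosis downstream of it: Cdkn1a, Gtse1, Ccng1, Mdm2, Trp53inp1, Sesn1, Bax, Bbc3 and Pmaip1. They were chosen by symbol, and all 9 of 9 were among the 12880 genes of the deposited expression table. RNA-seq had been done on 13 libraries of mouse embryonic limb buds, from 3 or 4 embryos a group per the header of the deposited table. At E11.5 (embryonic stage in days) the controls (n = 3) carried Sox9fl/- and the Sox9null samples (n = 4) Sox9-/-. At E12.5 the controls (n = 3) carried Sox9fl/fl and the Sox9cKO samples (n = 3) Sox9fl/flPrx1CreER. The E11.5 controls therefore already lacked 1 Sox9 allele, and the Prx1CreER allele is known to act in limb mesenchyme, not in every limb bud cell. Strain and any inducing agent were not given in the sources used here. Expression values are normalized RPKM, in which reads are scaled to the length of the gene and the size of the library, so levels of different genes can be compared per length of transcript.

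p53 is a transcription factor that is held low by the ubiquitin ligase MDM2 and is stabilised by DNA damage, ribosomal stress and other insults. It binds pairs of short half-sites near its target genes, which fall into genes that arrest the cell cycle, genes that feed back on p53 itself, genes of repair and metabolism, and genes that open the mitochondrial path of apoptosis. In the limb bud, cell death is known from the apical ridge, from the interdigital mesenchyme and from mutants that lose skeletal progenitors. SOX9 is the transcription factor required for cartilage formation, and the study asked what limb buds express when it is missing at the onset of chondrogenesis.

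Promoter sequences were read from RefSeq windows on GRCm38 (the assembly also called mm10), which span 250 bases before and 50 bases after an annotated start site. Of the 9 genes 7 matched a window, and Trp53inp1 and Pmaip1 did not. The strict consensus of the p53 half-site is a 10-base palindrome that reads the same on both strands. It was found in at least 1 window of 6 of these 7 genes, against 9.55% of the 27025 genes with a window. Counted by window it was in 6 of their 12 windows, against 8.36% of all 32851 windows. Cdkn1a, Sesn1 and Gtse1 each also had a window without it. A gene with more windows has more places for a match. The matches are shown because the 9 genes were grouped as p53 targets, and a match describes the letters and shows no binding. Capitals mark the half-site, each sequence is given 5′ to 3′ on the strand of the gene, and the places are chr17:29090886-29090957 (+) for Cdkn1a, chr10:117710915-117710964 (−) for Mdm2, chr11:40755442-40755491 (−) for Ccng1, chr10:41887246-41887295 (+) for Sesn1 and chr7:45467070-45467119 (−) for Bax.
Cdkn1a: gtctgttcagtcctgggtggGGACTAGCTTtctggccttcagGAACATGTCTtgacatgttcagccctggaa
Mdm2: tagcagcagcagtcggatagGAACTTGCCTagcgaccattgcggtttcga
Ccng1: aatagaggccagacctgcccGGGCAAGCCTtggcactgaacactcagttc
Sesn1: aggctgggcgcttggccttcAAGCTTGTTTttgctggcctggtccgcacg
Bax: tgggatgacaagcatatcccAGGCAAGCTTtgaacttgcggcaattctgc

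A Cdkn1a window held a pair of strict half-sites, 12 bases apart and within the 13-base limit that the search allowed. Such a pair was present in 24 of the 32851 windows (0.0731%). The search allowed no mismatch. The bases tgacatgttc, directly after GAACATGTCT, resemble a half-site but miss the strict consensus, so they were not marked. Which of these half-sites would pair in a full site was not tested. The single half-sites of Mdm2, Ccng1 and Bax began 186, 185 and 201 bases before the start site. That of Sesn1 began 173 bases before a start site that lies inside the longer gene. Gtse1 had its half-site 9 to 18 bases after the start. The strict half-site was not in the windows of Bbc3, whose start sites all lie inside the longer gene. The first of these windows begins at chr7:16309333 and the gene at 16308393, so the bases before the gene were not searched.

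Sox9 itself was measured first, as a check of the labels. Its level was 40.7 ± 7.47 RPKM (SD, n = 3) in the E11.5 controls and 23.5 ± 2.35 (n = 4) in Sox9null, without overlap (log2 difference -0.76, adjusted p = 0.0360 by limma). At E12.5 it was 36.2 ± 1.22 (n = 3) in controls and 32.0 ± 3.23 (n = 3) in Sox9cKO, also without overlap, but the difference of -0.18 did not pass the test (adjusted p = 1.0). The E11.5 call held in 9 of 25 alternative fits. With 1 library left out its adjusted p ran from 0.0379 to 0.139, and it was kept only without E11.5 control 1 or Sox9cKO 2. Sox9 RNA remained in every mutant library. All 10 limb mesenchyme markers were measured, with summed levels of 376 to 417 RPKM over the 13 libraries. Of the 12 early cartilage markers, 11 at E11.5 and 12 at E12.5 had a negative mutant difference, and 3 at each stage passed the test (adjusted p under 0.05). Over all genes 0.0543% passed at E11.5 and 0.194% at E12.5. Sox9 is itself among the 12 and among the 3 that passed at E11.5. From 4 Y-linked genes, control 1 and Sox9null 3 at E11.5, all 3 controls at E12.5 and Sox9cKO 3 were read as XY, and the other 7 libraries as XX. By correlation the E11.5 libraries split in 2. Sox9null 3 and 4 went with controls 1 and 3 (the set of 4), and Sox9null 1 and 2 with control 2 (the set of 3). Pearson's r was 0.979 to 0.989 within and 0.938 to 0.966 between these sets, and what sets them apart was not given in the sources used here.

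**Figure D1:**
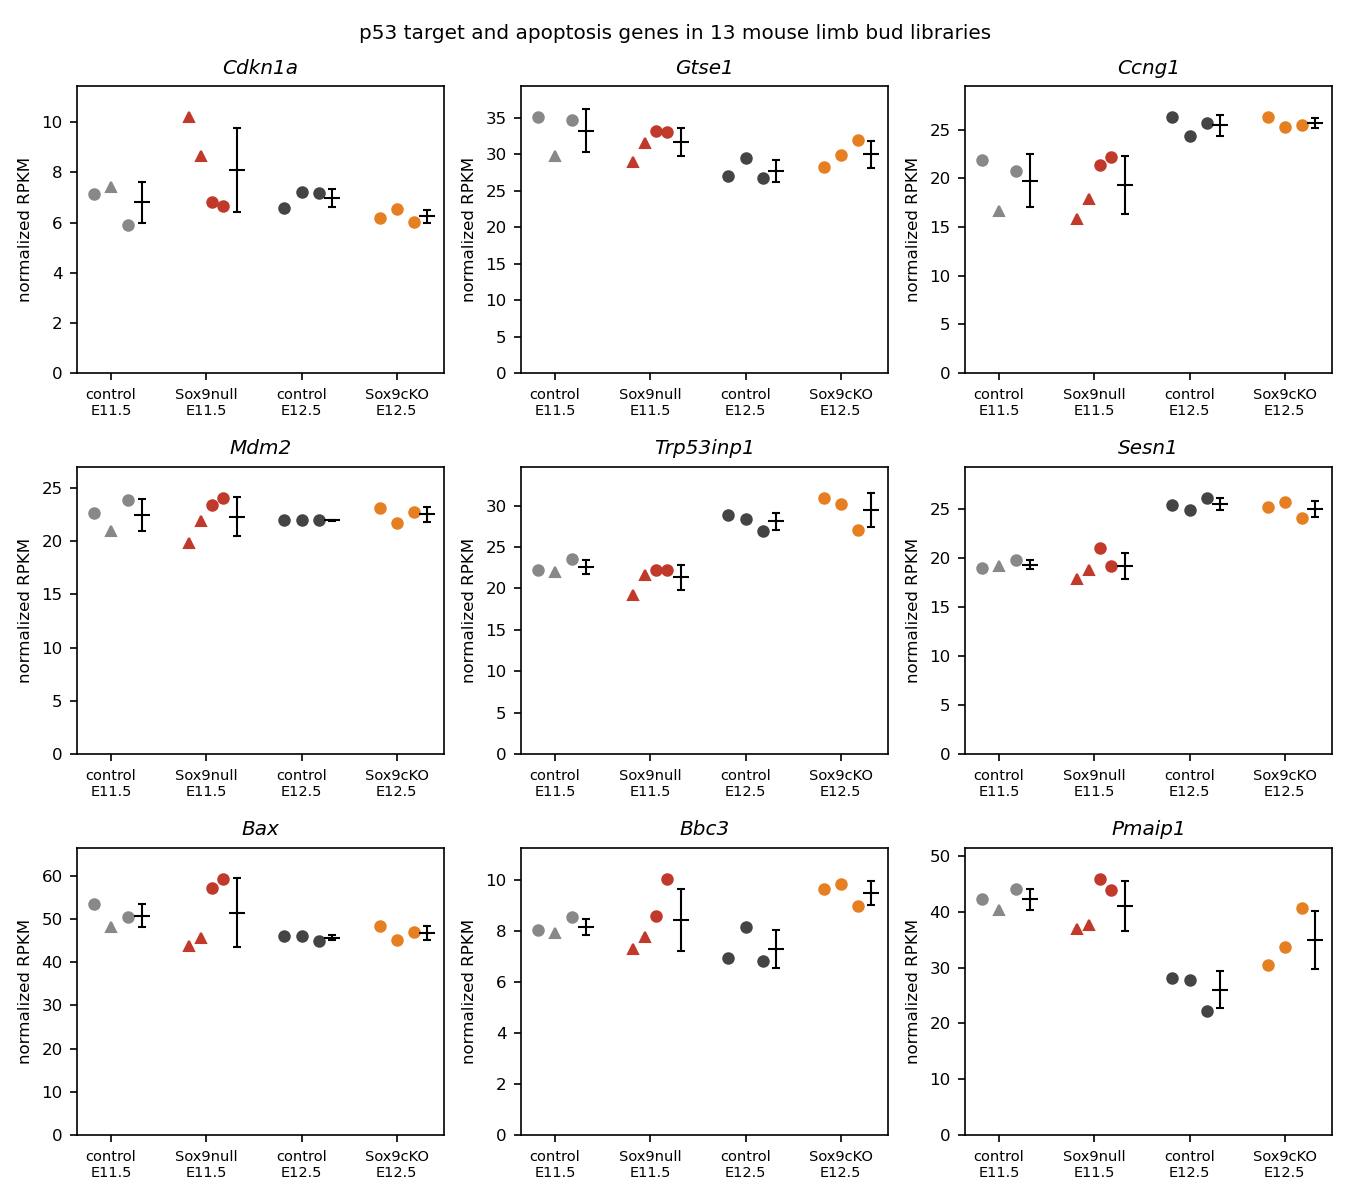
Normalized RPKM (linear axis from 0) of each of the 9 genes in every library, by group; triangles are the E11.5 set of 3, circles all other libraries, and black bars the group mean and SD. Sesn1, Trp53inp1 and Ccng1 sit higher in the 6 libraries of E12.5 than in the 7 of E11.5, while Pmaip1 is lowest in the E12.5 controls.

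All 9 are protein-coding genes, and their coordinates below are GENCODE's on GRCm38. They showed no difference that passed the test between Sox9-deficient and control limb buds at either stage. Several passed the test between E11.5 and E12.5. Sesn1 and Trp53inp1 were higher at E12.5 in controls and in mutants, Ccng1 passed as higher in mutants, and Pmaip1 and Gtse1 as lower in controls. Passing in only 1 of the 2 is not a difference between them. In controls Ccng1 differed by 0.36 (adjusted p = 0.0515 by limma), and in mutants by 0.41. The test of the difference between the 2 stage changes was passed by 0 of 9 genes. The tests were made with limma on log2(RPKM + 1), with p-values adjusted by Benjamini-Hochberg over all 12880 genes. Genes below an adjusted p of 0.05 are termed called. Limb buds are mixed tissue, so fewer cells of a type and less RNA per cell cannot be told apart here.

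At E11.5, 0 of 9 genes were called between Sox9null and control, against 0.0543% of all genes (7 of 12880). None of the 9 had an unadjusted p under 0.05, and limma without the trend and robust options also called 0. Their log2 differences ran from -0.08 for Trp53inp1 to 0.21 for Cdkn1a, with a median of -0.01 against 0.01 over all genes. The 95% confidence bound farthest from 0 among them was 0.48, for Cdkn1a. The values of 0 of 9 genes were free of overlap between the groups, as were those of 2.47% of all genes.

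Cdkn1a (ENSMUSG00000023067, chr17:29090976-29100727, +) encodes p21, the inhibitor of cyclin-dependent kinases through which p53 arrests the cell cycle. Its level was 7.14, 7.42 and 5.89 RPKM in the 3 E11.5 controls and 10.2, 8.66, 6.82 and 6.67 in the 4 Sox9null libraries. Both libraries above the controls, Sox9null 1 and 2, belonged to the set of 3, and the other pair lay among the controls. The log2 difference of 0.21 (SE 0.125, 95% confidence interval -0.07 to 0.48) had an adjusted p of 1.0 by limma, and an exact two-sided permutation test of the 3 controls against the 4 mutants gave p = 0.343. Within the set of 3 the difference was 0.31 and within the set of 4 it was 0.05. At E12.5 the gene was at 6.58, 7.21 and 7.18 RPKM in controls and at 6.17, 6.55 and 6.01 in Sox9cKO. All 3 Sox9cKO libraries were the lower ones there, by -0.14 on the log2 scale (95% confidence interval -0.43 to 0.15, adjusted p = 1.0 by limma).

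Bax (ENSMUSG00000003873, chr7:45461697-45466898, −) encodes the effector that permeabilises the outer mitochondrial membrane, and it was the most highly expressed of the 9 genes per transcript length. It was at 53.5, 48.2 and 50.5 RPKM in the E11.5 controls and at 43.7, 45.6, 57.3 and 59.3 in Sox9null. The mutants thus lay on both sides of the controls, with the 2 of the set of 3 below all controls and the 2 of the set of 4 above them. The group means of 50.7 ± 2.64 (n = 3) and 51.5 ± 7.97 (n = 4) were nearly equal while the spread within mutants was wider (log2 difference 0.01, 95% confidence interval -0.20 to 0.22).

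The split of the E11.5 libraries ran through most of these genes. In 7 of 9 (Gtse1, Ccng1, Mdm2, Trp53inp1, Bax, Bbc3 and Pmaip1) the set of 3 was below the set of 4 both within controls and within Sox9null, as it was for 47.8% of all genes. Only Cdkn1a of the 9 was above in both, as were 19.3% of all genes, and Sesn1 was neither. Ccng1 and Bax had the largest shifts downward, -0.34 and -0.26 on the log2 scale, and Cdkn1a the shift upward, 0.35. These shifts exceed the mutant difference of the same gene at E11.5 in all 3. They are a description, since the sets were drawn from the values of these libraries. Within the sets, the mutant differences ran from -0.11 (Pmaip1) to 0.31 (Cdkn1a) in the set of 3 and from -0.08 (Gtse1) to 0.16 (Bax) in the set of 4.

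**Figure D2:**
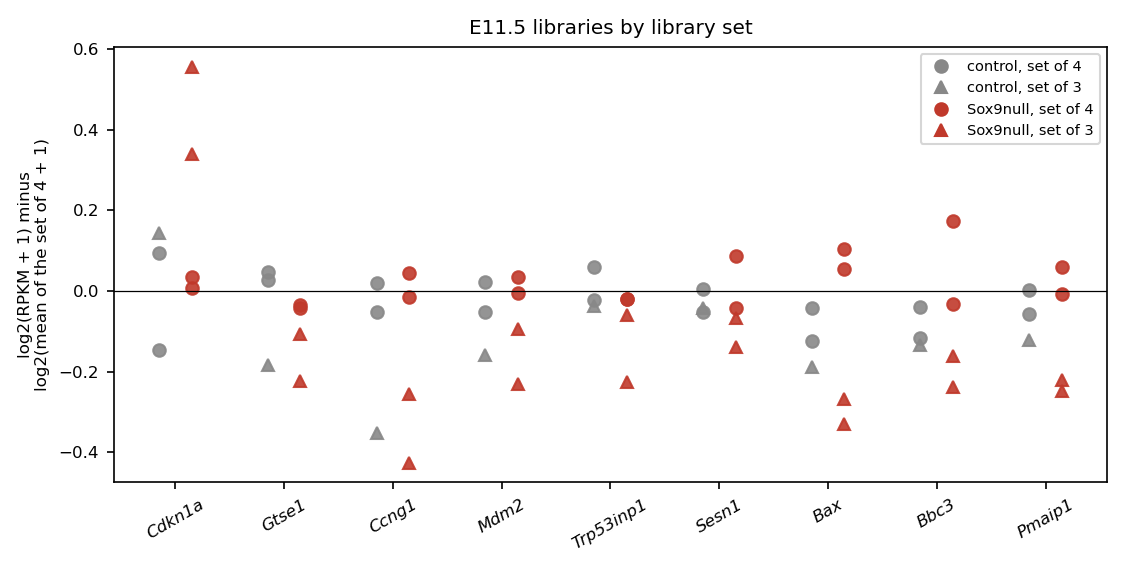
Level of the 9 genes in the 7 E11.5 libraries as log2(RPKM + 1) minus the log2 of the mean of the set of 4 plus 1; grey symbols are controls, red symbols Sox9null, circles the set of 4 and triangles the set of 3. Triangles lie below circles of their own colour in 7 genes and above them in Cdkn1a.

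At E12.5, 0 of 9 genes were called between Sox9cKO and control, against 0.194% of all genes (25 of 12880). Pmaip1 and Bbc3 were the 2 of 9 genes with an unadjusted p under 0.05, as had 5.41% of all genes. All Sox9cKO values lay above all controls in these 2, as in 1483 of 12880 genes, and below them in Cdkn1a, as in 1095. The median log2 difference of the 9 was 0.03, beside 0.01 over all genes.

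Pmaip1 (ENSMUSG00000024521) encodes NOXA, a BH3-only protein that neutralises the survival protein MCL1. Its level was 28.2, 27.8 and 22.2 RPKM in the E12.5 controls and 30.6, 33.8 and 40.7 in Sox9cKO. Every Sox9cKO library was above every control, and the gap between the highest control and the lowest mutant was small beside the range within either group. The means were 26.1 ± 3.36 (n = 3) and 35.0 ± 5.16 (n = 3), a log2 difference of 0.41 (SE 0.119, 95% confidence interval 0.15 to 0.67) that did not pass the test (adjusted p = 0.359 by limma, 0.105 to 1.0 over 25 alternatives). An exact two-sided permutation test gave p = 0.1, the smallest that 3 against 3 allow. All controls at this stage were XY and only Sox9cKO 3, the highest library, was XY among the mutants. With sex as a term the difference was 0.53 (adjusted p = 0.105), and without Sox9cKO 3 it was 0.30 (adjusted p = 1.0).

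Bbc3 (ENSMUSG00000002083, chr7:16308393-16318205, +) encodes PUMA, a BH3-only protein through which p53 sets off apoptosis. It stood at 6.94, 8.14 and 6.81 RPKM in the E12.5 controls and at 9.64, 9.85 and 8.98 in Sox9cKO. Here too the mutants were all above the controls, by 0.34 on the log2 scale (SE 0.102, 95% confidence interval 0.12 to 0.56), and the test was not passed (adjusted p = 0.392 by limma, 0.0898 to 1.0 over 25 alternatives). The exact permutation p was again 0.1. Beside both genes, the summed level of 15 erythroid markers was 652 to 709 RPKM in the E12.5 controls and 903 to 1114 in Sox9cKO, with 2 of 15 called higher. That of the 12 early cartilage markers was 309 to 388 against 179 to 238, with 3 called lower. Over all 12880 genes 7 were called higher and 18 lower. Above 0 were 12 of 12 endothelial, 6 of 10 limb mesenchyme and 4 of 11 macrophage markers, with 0 called. The same held for 3 of 13 surface ectoderm and 2 of 8 skeletal muscle markers, also with 0 called. The part of these cell types in these 2 differences was not tested.

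The other 6 genes had log2 differences of -0.03 (Sesn1) to 0.11 (Gtse1) at E12.5. Mdm2 (ENSMUSG00000020184, chr10:117688875-117710758, −), the ubiquitin ligase that p53 induces and that degrades p53, was at 22.0, 22.0 and 22.0 RPKM in controls (21.965, 21.967 and 22.044) and at 23.1, 21.7 and 22.7 in Sox9cKO. The 95% confidence interval of its mutant difference at this stage was -0.12 to 0.18 on the log2 scale, with the spread estimated over all 4 groups. Mdm2 had the narrowest spread of the 9 genes in the E12.5 controls (SD 0.0450 RPKM).

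**Figure D3:**
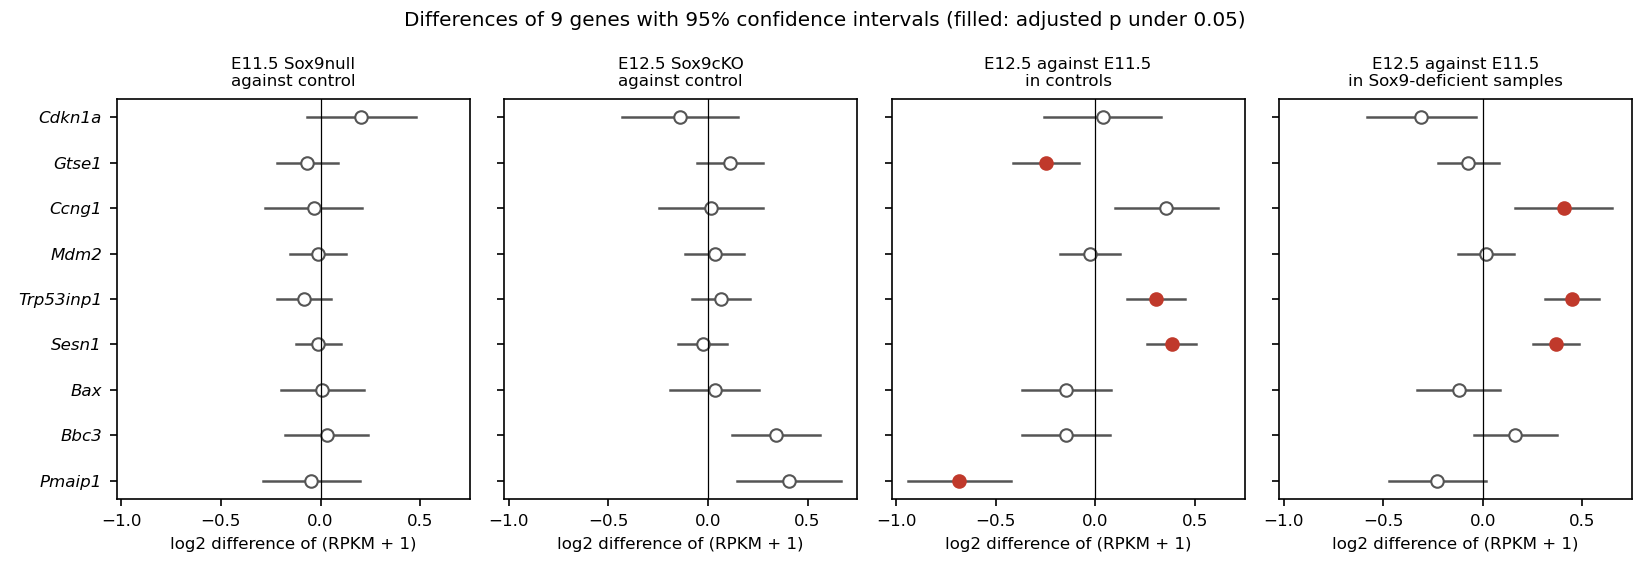
Log2 difference of (RPKM + 1) for each gene in 4 comparisons (first group minus second), with its 95% confidence interval from limma; filled red circles passed an adjusted p of 0.05 over all genes, open circles did not. The filled circles are in the comparisons of stages only: 4 genes in controls and 3 in Sox9-deficient samples.

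The mutant differences of E12.5 and E11.5 were compared as an interaction. Of the 9 genes 0 were called, against 0.0311% of all genes (4 of 12880). The 2 differences rest on unlike alleles: Sox9-/- against Sox9fl/- at E11.5, and Sox9fl/flPrx1CreER against Sox9fl/fl at E12.5. Sox9 itself differed by -0.76 at E11.5 and by -0.18 at E12.5. Stage and allele cannot be told apart in this comparison. The E12.5 difference exceeded that at E11.5 by 0.45 for Pmaip1 (95% confidence interval 0.10 to 0.81, unadjusted p = 0.0169, adjusted p = 1.0 by limma). For Bbc3 the excess was 0.31 (0.00 to 0.61, unadjusted p = 0.0472). Cdkn1a went the other way by -0.35 (-0.75 to 0.05, unadjusted p = 0.0840), since it was above the controls on average at E11.5 and below them at E12.5. Each adjusted p was 1.0.

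The comparison of stages in the controls called 4 of 9 genes, against 21.7% of all genes. Sesn1 and Trp53inp1 were among the 16.5% of genes higher at E12.5, and Pmaip1 and Gtse1 among the 5.19% that were lower. Quantile normalization across libraries changed the split over all genes from 2126 higher and 668 lower to 1477 higher and 1187 lower, and it called the same 4 with Ccng1 and Bbc3 added. In the Sox9-deficient samples 3 of 9 were called, against 19.7% of all genes: Sesn1, Trp53inp1 and Ccng1 were higher, as were 14.5% of all genes, and 0 of 9 lower, beside 5.23% of all. There the split over all genes was 1865 higher and 674 lower, and 1336 and 1066 after quantile normalization. The values of 6 of 9 genes did not overlap between stages in controls (45.9% of all genes) and those of 4 of 9 in the mutants (33.5%). Stage cannot be told apart from the Sox9 allele in use, Sox9fl/- or Sox9-/- at E11.5 and floxed alleles at E12.5, nor from any batch that goes with stage. In controls, stage also went largely with sex. All 3 E12.5 controls were read as XY, and of the E11.5 controls only control 1. With sex as a term the same 4 genes were called in controls, with Gtse1 at -0.33, and the same 3 in mutants.

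Sesn1 (ENSMUSG00000038332, chr10:41809935-41908424, +) encodes sestrin 1, a stress protein that restrains mTORC1 signalling and oxidative damage. Its level was 19.03, 19.2 and 19.8 RPKM in the E11.5 controls, 17.8, 18.8, 21.1 and 19.2 in Sox9null, 25.5, 24.9 and 26.2 in the E12.5 controls and 25.2, 25.8 and 24.1 in Sox9cKO. All 6 libraries of E12.5 were above all 7 of E11.5. It rose by 0.38 in controls (SE 0.0564, adjusted p = 0.00127 by limma) and by 0.37 in the mutants (SE 0.0528, adjusted p = 0.00260), and both calls held in 25 of 25 alternatives. Within each stage, the mutant and control means differed by less than 1 SD.

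Trp53inp1 (ENSMUSG00000028211, chr4:11156431-11174379, +), which encodes a nuclear stress protein that assists p53 and autophagy, was also higher at E12.5 in controls and in mutants. It was at 22.2, 22.0 and 23.5 RPKM in the E11.5 controls, at 19.1, 21.6, 22.2 and 22.2 in Sox9null, at 28.8, 28.4 and 27.0 in the E12.5 controls and at 30.9, 30.2 and 27.1 in Sox9cKO. Again no E11.5 library reached any of E12.5. The rise was 0.30 in controls (SE 0.0665, adjusted p = 0.00840 by limma) and 0.45 in mutants (SE 0.0622, adjusted p = 0.00209), called in 25 of 25 alternatives each.

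Ccng1 (ENSMUSG00000020326, chr11:40748552-40755311, −) encodes cyclin G1, which recruits a phosphatase to MDM2. The E11.5 controls were at 21.9, 16.7 and 20.8 RPKM, Sox9null at 15.8, 17.9, 21.3 and 22.2, the E12.5 controls at 26.3, 24.3 and 25.7 and Sox9cKO at 26.3, 25.3 and 25.5. All libraries of E12.5 were above all of E11.5, and the 3 lowest values were those of the set of 3. In the mutants it rose by 0.41 (SE 0.111, adjusted p = 0.0266 by limma), and in the controls the difference of 0.36 missed the threshold (SE 0.119, adjusted p = 0.0515). The call in mutants was lost without Sox9null 1 or 2 (adjusted p = 0.0511 and 0.0632) or without Sox9cKO 1, 2 or 3 (0.0889, 0.0844 and 0.0640), and also with only the groups compared in the fit (0.0644), so it held in 19 of 25 alternatives. In controls it was gained without Sox9null 1, 3 or 4 (0.0221, 0.0483 and 0.0379), libraries that enter that comparison through the shared estimate of the spread. Other fits moved the control difference away from the threshold. It was 0.27 with sex as a term (adjusted p = 0.182 by limma), 0.29 with a replicate block (0.101) and 0.24 without E11.5 control 2 (0.165). With the set of 3 left out, Ccng1 differed by 0.24 in controls (adjusted p = 0.00179), one of 9 alternatives of 25 with a call there.

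Pmaip1 had the largest stage difference of the 9 genes. It was at 42.3, 40.4 and 44.1 RPKM in the E11.5 controls, at 37.0, 37.7, 46.0 and 43.9 in Sox9null, and at the lower E12.5 values given above. In controls it fell by 0.68 on the log2 scale (SE 0.119, 95% confidence interval -0.94 to -0.42, adjusted p = 0.00267 by limma), with all E12.5 controls below all E11.5 controls and the call made in 25 of 25 alternatives. In the mutants the groups overlapped, since Sox9cKO 3 was above Sox9null 1 and 2, and the difference of -0.23 did not pass (adjusted p = 0.157). The order of the group means was E11.5 control, Sox9null, Sox9cKO and E12.5 control, and the first pair differed by less than its spread.

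Gtse1 (ENSMUSG00000022385, chr15:85859745-85876573, +) encodes a microtubule-bound protein of G2 and mitosis that carries p53 out of the nucleus. Its levels were 35.1, 29.8 and 34.6 RPKM in the E11.5 controls, 28.9, 31.5, 33.1 and 33.0 in Sox9null, 27.0, 29.5 and 26.7 in the E12.5 controls and 28.3, 29.8 and 31.9 in Sox9cKO. The lowest E11.5 control (29.8) and the highest E12.5 control (29.5) nearly met. It fell by 0.25 on the log2 scale in controls (SE 0.0756, adjusted p = 0.0354 by limma). That call was lost without E11.5 control 1 or 3 (adjusted p = 0.118 and 0.0976), E12.5 control 1 or 3 (0.121 and 0.114) or Sox9cKO 2 (0.0514), with only the groups compared (0.0589) and with a replicate block (0.0614). With the E11.5 set of 4 left out, the difference was -0.10 (adjusted p = 0.308). The call held in 17 of 25 alternatives. In mutants it was -0.07 (adjusted p = 0.475).

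The remaining 4 genes were not called between stages. Mdm2 stayed within 19.9 to 24.1 RPKM over the 13 libraries, with stage differences of -0.03 in controls and 0.02 in mutants. Bax was 46.0, 46.0 and 45.0 RPKM in the E12.5 controls, below all 3 E11.5 controls, and 48.4, 45.2 and 46.9 in Sox9cKO, within the range of Sox9null. Its stage differences were -0.15 in controls (adjusted p = 0.3205 by limma) and -0.12 in mutants (0.381), and they became calls with the set of 3 left out (-0.18 and -0.31, adjusted p = 0.00435 and 4.14e-04). With the set of 4 left out, Bax was at -0.08 in controls (adjusted p = 0.178) and at 0.07 in mutants (0.125). Leaving out 1 library gave -0.18 to -0.11 in controls and, in mutants, -0.19 (without Sox9null 1) to -0.05 (without Sox9null 4), and no call. Bbc3 was at 8.04, 7.93 and 8.53 RPKM in the E11.5 controls and at 7.31, 7.77, 8.58 and 10.1 in Sox9null, which overlapped both E12.5 groups. The stage differences of Bbc3 had opposite signs, -0.15 in controls (adjusted p = 0.317 by limma) and 0.16 in mutants (0.238). After quantile normalization it was called in controls (-0.31, adjusted p = 0.0494 by limma). With the set of 4 left out, the difference of Bbc3 in mutants was 0.30. Cdkn1a was lower in all 3 Sox9cKO than in all 4 Sox9null libraries by 0.31 on the log2 scale (difference -0.31, adjusted p = 0.0990 by limma), and was 0.04 higher at E12.5 in controls (adjusted p = 0.870). The difference in mutants ran from -0.39 without Sox9null 4, where it was called (adjusted p = 0.0469), to -0.20 without Sox9null 1 (0.206). It was -0.52 with the set of 4 left out (0.00113) and -0.10 with the set of 3 left out (0.394), and it was called in 4 of 25 alternatives.

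A single p-value per gene is given in the authors' deposited table over the 4 groups (analysis of variance, adjusted for the false discovery rate). By the authors' deposited table, Sesn1 (0.00129), Trp53inp1 (0.00302) and Pmaip1 (0.0145) were at or under 0.05, 3 of 9 genes where 22.0% of all genes were. The authors' deposited value was 0.0591 for Ccng1 and between 0.141 (Gtse1) and 0.988 (Mdm2) for the other 5.

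The rest of the pathway was read from 5 lists: p53 and its upstream regulators, other p53 targets of arrest, repair and feedback, other p53 targets of cell death, the BCL2 family with caspases and their inhibitors, and G2 and mitosis genes. In both mutant comparisons and in the interaction, 0 genes of any of these lists were called. The list medians ran from -0.04 to 0.04 at E11.5 and from -0.01 to 0.08 at E12.5. The gene with the largest difference among them at E12.5 was Bcl2, the survival protein that BH3-only proteins oppose, at 24.0 ± 2.69 RPKM (n = 3) in controls and 18.2 ± 0.842 (n = 3) in Sox9cKO (log2 difference -0.38, adjusted p = 0.294 by limma). Sesn2, the paralogue of Sesn1, had 14.7 ± 0.205 RPKM (n = 3) in Sox9cKO and was 0.22 above controls on the log2 scale (adjusted p = 0.495). At E11.5 the largest were Bmf and Bcl2, with -0.23 and -0.22 (adjusted p = 1.0 each). The G2 and mitosis genes lay below 0 in all 20 of 20 members at E11.5 and above 0 in 19 of 20 at E12.5, with medians of -0.04 and 0.08 and no member called. The median over all genes was 0.01 at both stages. Members of such a list can vary together, so their directions are not separate observations, and they were not tested as a set.

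Trp53, which encodes p53, was lower at E12.5. It was at 25.8 ± 2.22 RPKM (n = 3) and 26.8 ± 1.95 (n = 4) in controls and mutants of E11.5, and at 18.4 ± 0.945 (n = 3) and 18.7 ± 0.289 (n = 3) at E12.5. It fell by 0.47 in controls (adjusted p = 0.00148 by limma) and by 0.50 in mutants (adjusted p = 0.00175). Trp53 was the only 1 of 15 measured members of the regulator list called in controls, and in mutants Rpl11, a ribosomal protein that binds MDM2, was called as well (-0.42). Over all genes 21.7% were called in controls and 19.7% in mutants. Hipk2 and Ep300, a kinase and an acetyltransferase of p53, had differences of -0.50 and -0.45 in controls that did not pass (adjusted p = 0.269 and 0.270), with an SD of 8.44 and 7.90 RPKM in the E11.5 controls. Trp73 and Cdkn2a were not among the listed genes.

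Among 27 measured targets of arrest, repair and feedback, 6 were called higher at E12.5 in controls and 0 lower, where 16.5% and 5.19% of all genes were. The difference was above 0 in 18 of the 27, with a median of 0.11 beside 0.06 over all genes. The 6 were Plk2 (0.55), Pltp (0.42), Btg2 (0.38), Phlda3 (0.37), Polk (0.32) and Ak1 (0.27). Plk2, a polo-like kinase, had the largest rise, from 36.3 ± 3.58 to 53.6 ± 5.51 RPKM (n = 3 each), and Btg2 encodes an antiproliferative cofactor of mRNA decay. In mutants 24 of 27 were above 0, with a median of 0.17 beside 0.06, and 5 were called higher and 0 lower (14.5% and 5.23% of all genes): Btg2 (0.37), Plk2 (0.35), Ak1 (0.35), Polk (0.23) and Ercc5 (0.22). Zmat3 had the largest difference that did not pass in both (-0.45 and -0.43, adjusted p = 0.324 and 0.305), and the next were Dcxr in controls (0.26) and Sfn in mutants (0.39).

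Of 10 measured targets with a role in cell death, 4 were called higher and 1 lower at E12.5 in controls, where 16.5% of all genes were higher and 5.19% lower. Those higher were Perp (0.42), a membrane protein also found in surface ectoderm, Shisa5 (0.31), the death receptor Tnfrsf10b (0.26) and Apaf1 (0.17), the scaffold of the apoptosome. Lrdd, an older symbol of Pidd1, fell from 13.1 ± 0.565 to 9.84 ± 0.766 RPKM (n = 3 each, -0.38). In mutants Shisa5 (0.30) and Apaf1 (0.26) were higher and Lrdd (-0.34) lower, beside 14.5% and 5.23% of all genes. Bid and Siva1 were the largest that did not pass in controls (0.28 and -0.20), and Siva1 and Perp in mutants (-0.28 and 0.24). Fas, Tp53i3 and Dram1 were not among the listed genes.

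In the list of 31 measured BCL2 family members, caspases and inhibitors, Bcl2 (0.60) and Casp8 (0.40) were higher and Parp1 (-0.31) lower at E12.5 in controls. These are 3 of 31, where 21.7% of all genes were called. Bcl2 rose from 15.6 ± 2.07 to 24.0 ± 2.69 RPKM (n = 3 each, adjusted p = 0.00266 by limma). In mutants 4 were higher and 0 lower, where 19.7% of all genes were called, among them Bcl2 (0.44), the BH3-only gene Bmf (0.44) and the inhibitor Birc2 (0.21). Among those that did not pass were Birc5 in controls (-0.26) and Casp8 and Birc3 in mutants (0.26 and 0.24). Bcl2 thus stood opposite to Pmaip1 in the comparison of stages in controls, the first higher and the second lower at E12.5. Bik and Hrk were not among the listed genes.

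Of the 20 G2 and mitosis genes, Top2a (-0.31) and Plk1 (-0.24) were lower at E12.5 in controls, with a list median of -0.15, and Plk1 (-0.16) alone in mutants, with a median of -0.01. Of all genes, 5.19% were called lower in controls and 5.23% in mutants. Top2a, the topoisomerase of mitotic chromosomes, went from 65.5 ± 5.17 to 52.5 ± 1.78 RPKM (n = 3 each). Cdc20 and Mki67 were the largest that did not pass in controls (-0.28 and -0.21), and Nusap1 and Top2a in mutants (0.24 and -0.16). Gtse1 belongs with these genes by its role.

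Marker lists of other cell types were compared between stages as well. Over all genes, 16.5% were called higher and 5.19% lower at E12.5 in controls, and 14.5% and 5.23% in mutants. In controls, the summed level of 11 macrophage markers was 48.7 to 58.0 RPKM at E11.5 and 83.9 to 98.7 at E12.5, with 9 of 11 called higher, and in mutants 45.6 to 65.5 and 68.2 to 107.7, with 7 of 11 called higher. That of 8 skeletal muscle markers was 53.1 to 83.1 and 165 to 200 RPKM in controls, with 6 called higher and 1 lower, and 58.8 to 89.8 and 120 to 173 in mutants, with the same counts. Of the 12 early cartilage markers 8 were called higher in each, and 1 lower in mutants. The 15 erythroid markers went the other way in controls, at 852 to 957 RPKM at E11.5 and 652 to 709 at E12.5, with 3 of 15 called lower. In mutants they were at 875 to 1507 and 903 to 1114, with 1 called lower. The limb mesenchyme markers were at 377 to 417 RPKM over the E11.5 groups and 376 to 402 over those of E12.5, with 2 of 10 called higher in controls and 0 in mutants. Of 12 endothelial markers 1 was called higher in controls and 2 in mutants. Of 13 surface ectoderm markers 3 were called higher and 1 lower in controls, and 2 higher in mutants. These few calls do not set the endothelial, surface ectoderm and mesenchyme lists apart from all genes. The part of these cell types in the stage differences of the 9 genes was not tested.

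**Figure D4:**
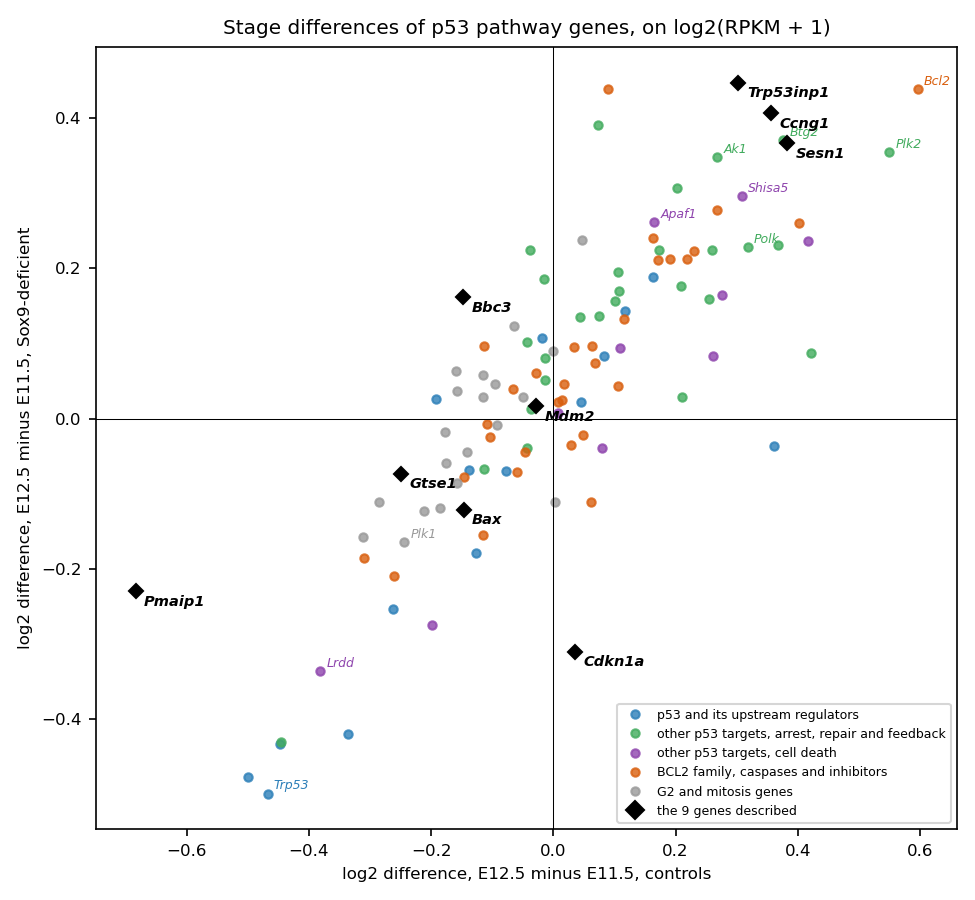
Log2 difference of (RPKM + 1) between E12.5 and E11.5 in controls (horizontal) and in Sox9-deficient samples (vertical) for the 9 genes (black diamonds) and the genes of 5 p53 pathway lists (coloured circles, named where called in both). Trp53 and Lrdd lie in the lower left, Bcl2, Plk2, Sesn1 and Trp53inp1 in the upper right, and Pmaip1 farthest to the left.

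The genes most like each of the 9 were found by Pearson's r of log2(RPKM + 1) over the 13 libraries, among genes whose mean reached 5 RPKM. The values share stage, library set and normalization, and they are a description. Sesn1 was closest to Edem3, Tmem106b and Arfgap3 (r = 0.986, 0.984 and 0.984), and Ccng1 to Tbk1, Hspa13 and BC003331 (0.991, 0.988 and 0.986). Trp53inp1 was nearest to Helb, Zfyve1 and Trib2 (0.978, 0.973 and 0.973). For Mdm2 the closest were Mbd4, Arhgef39 and Ccng2 (0.977, 0.963 and 0.953), the last being another of the listed p53 targets.

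Among the apoptosis genes, Bax was closest to Aamp, Ppib and Ssr3 (0.973, 0.971 and 0.971), of which the last pair belongs to the endoplasmic reticulum. Pmaip1 was closest to Arid3a, Mapk12 and Smpd4 (0.943, 0.939 and 0.934). Bbc3 was closest to Plcg2, Dusp23 and Cited4 (0.907, 0.904 and 0.903). Gtse1 was nearest to Dna2, Rcor2 and Lrrc59 (0.962, 0.951 and 0.934), the first a nuclease of DNA replication. Cdkn1a had Atp11b, Cdh1 and Itga3 (0.910, 0.908 and 0.906), of which Cdh1 is one of the 13 surface ectoderm markers. Those markers summed to 164 to 195 RPKM in the E11.5 controls, 177 to 234 in Sox9null, 209 to 217 in the E12.5 controls and 182 to 208 in Sox9cKO, and their part in the level of Cdkn1a was not tested.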

How the data were processed

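Per the labels' protocols, total RNA of 13 limb bud samples was taken up with an RNeasy Mini Kit, and libraries followed a standard Illumina procedure. CASAVA 1.8 and mm10 were used, per the submitters' processing notes; aligner, counting, strand and annotation were not given in the sources used here. For every gene and library, the authors deposited a normalized RPKM, kept genes averaging 3 or more in some group, per the file headers, and deposited an adjusted p-value over the 4 groups. Whole reads could not be recovered (33.6% to 49.4% of low values lay within 0.15 of a whole multiple, 30% by chance), so the depth is unknown and no count model or counting interval was used. Of the 78 library pairs 0 held identical values.

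Values were analysed as log2(RPKM + 1) in limma 3.58.1 (R 4.3.3) with trend and robust estimation, a mean for each of 4 groups over 13 libraries, two-sided, adjusted by Benjamini-Hochberg. Genes had to reach 1 RPKM in 3 libraries, which removed none. Differences on this scale understate changes of low genes. On simulated data of the E11.5 comparison (12880 genes), 93% of 100 genes changed by a log2 of 1 were called. Of 100 changed by 2 it was 98%, and there were 13 false calls. The simulated noise was independent between libraries and held no library sets, unlike the real E11.5 libraries. These shares and false calls therefore need not hold for the real data. Smaller changes were not simulated. The mutant differences of the described genes reached at most 0.21 at E11.5 and 0.41 at E12.5. The simulation therefore cannot tell how often differences of that size would be called. Single values were also tested by exact permutation (scipy 1.17.1).

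Groups and replicates come from the sample titles. Named were all 9 genes, Sox9, the called genes of 5 pathway lists, the 2 largest not called per list, and the 3 most alike genes per member, predicted genes left out. A gene that this rule takes is counted but not reported here. The 9 genes and the lists were chosen with earlier results of these data known. Coordinates (GENCODE M21) and promoter sequences (RefSeq) are on GRCm38. Alternatives were another pseudocount, filter, normalization, set of libraries, covariate or limma option; leaving out either E11.5 library set was added after seeing the data, and those sets were themselves drawn from these values.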

Additional observations from a re-analysis of the deposited data

How the results depend on the processing

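The 25 alternatives gave 1116 values of the 9 genes over the 5 comparisons. Of these, 1030 kept their direction and their side of the threshold, 14 lost a call, 17 gained one and 55 changed sign, 0 of them in a difference that had been called. The counts of called members in both mutant comparisons and the interaction were 0 throughout. Leaving out 1 library at a time gave 3 to 5 called members for stage in controls and 2 to 4 in mutants. With the E11.5 set of 4 left out, which leaves 1 E11.5 control assumed to vary like the other groups, 5 were called in mutants.

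Over all genes, the E11.5 mutant comparison called 2 at a pseudocount of 5, 0 with only the groups compared, 41 with the library set as a term, 27 without the set of 3, 1 without the set of 4 and 2 to 8 with 1 library left out (2 without E11.5 control 3 or Sox9null 3). The E12.5 mutant comparison called 46, 26, 105, 84, 55 and 9 to 47 in the same order (9 without E12.5 control 1), and 57 after quantile normalization. For stage in controls the counts were 7132 with the set term, 5546 and 6403 without the set of 3 or of 4, and 1381 to 3374 with 1 library left out, 1381 being without E12.5 control 1. For stage in mutants they were 924 with only the groups compared, 6675, 4498, 7502, and 708 to 2976, 708 being without Sox9cKO 2. The interaction called 2 at a pseudocount of 0.1, 2 with a 5 RPKM filter, 8 and 2 without the set of 3 or of 4, and 1 to 11 with 1 library left out (11 without Sox9cKO 1); it could not be fitted with only the groups compared. The sets were drawn from these values, so fits that use them have too small p-values. Other causes were not tested.

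Same-numbered samples shared only a number: their deviations correlated at -0.43, 0.64 and 0.44 at E11.5 and at 0.17, 0.03 and -0.12 at E12.5. With a replicate block, 0, 0, 3, 4 and 0 members and 5, 16, 2166, 2870 and 0 genes were called in the 5 comparisons. Under the block Gtse1 was no longer called for stage in controls (adjusted p = 0.0614 by limma), Cdkn1a was called in mutants (0.0348), and the E11.5 mutant differences became -0.06271 for Bax and -0.04769 for Bbc3.

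Sign changes were all in differences that had not been called. In the E11.5 mutant comparison, quantile normalization gave -0.002357 for Bax and -0.004287 for Bbc3, and the set term 0.01595 for Mdm2, 0.02299 for Ccng1 and 0.003219 for Sesn1. Without the set of 3 the values were 0.02908 for Mdm2, 0.03063 for Ccng1, 0.05316 for Pmaip1 and 0.04669 for Sesn1. Without the set of 4 they were 0.01154 for Ccng1, -0.1099 for Bax, -0.06586 for Bbc3 and 0.01829 for Gtse1. For Ccng1 at E12.5, quantile normalization gave -0.0008742. For stage in controls, Cdkn1a was at -0.1296 (quantile), -0.01793 (set term) and -0.07701 (without the set of 4), and Mdm2 at 0.06816 (without the set of 4). For stage in mutants, Mdm2 was at -0.04492 (quantile) and -0.07238 (without the set of 3), and Bax at 0.06761 (without the set of 4). For the difference between the mutant effects of the stages, the set term gave -0.008122 for Ccng1 and -0.0192 for Bax, leaving out the set of 3 gave -0.01576 and -0.1281, and leaving out the set of 4 gave 0.03539 for Sesn1.

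With 1 library left out, the E11.5 mutant differences ranged from -0.05973 to 0.0409 for Mdm2, -0.1472 to 0.05269 for Ccng1, -0.06271 to 0.08201 for Bax, -0.04769 to 0.08968 for Bbc3, -0.09961 to 0.002551 for Pmaip1 and -0.05299 to 0.02267 for Sesn1. Ccng1 ranged from -0.01618 to 0.03932 at E12.5. For stage in controls Cdkn1a ranged from -0.05262 to 0.09252 and Mdm2 from -0.07663 to 0.01455, and for stage in mutants Mdm2 from -0.03593 to 0.05281. The difference between the mutant effects ranged from -0.007559 to 0.09307 for Mdm2, -0.03781 to 0.162 for Ccng1, -0.04776 to 0.09696 for Bax and -0.04926 to 0.02639 for Sesn1.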
